A study of Mus musculus with 3 samples.

Results

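C1q-bearing macrophages of the mouse duodenum were taken as the cells whose transcripts included those of the 3 C1q chains. A barcode, the tag that marks 1 droplet, was kept if it held at least 500 UMIs (counted transcript molecules) and 200 genes and at most 15% mitochondrial UMIs. It was counted as a C1q-bearing cell if C1qa, C1qb and C1qc together had at least 5 UMIs and the T cell gene Cd3e and the B cell gene Cd79a had none. The rule found 225 C1q-bearing cells among 33284 kept barcodes, a share of 0.676% (exact binomial 95% interval 0.591% to 0.770%, counting error only). The cells were thus selected on the measured UMIs of C1qa, C1qb, C1qc, Cd3e and Cd79a, which are therefore given as descriptions only, and so is every comparison of these cells with the other barcodes.

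Macrophages of the gut wall are of several kinds. Those of the mucosa are continually replaced by blood monocytes, lose the monocyte receptor Ccr2 as they mature, and carry Cx3cr1 and MHC class II. A longer-lived resident population, known in the mouse gut for Timd4 (the phosphatidylserine receptor TIM-4) and, in deeper layers and around vessels and nerves, for Lyve1, Folr2 and Cd163, renews itself locally. C1q starts the classical complement cascade and also tags debris and dying cells for uptake, and in the gut macrophages are a major source of it.

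The cells came from C57B6/J mice, male per the series title, taken on day 30 after an injection into the wall of the duodenum. The injection was of saline in the controls and of PFF in the treated mice, which are preformed fibrils of alpha-synuclein, the protein that builds up in Parkinson's disease. The freed cells were collected partly by a sort on CD45 and partly on CD11b beads, so shares of cell types reflect those steps as well as the tissue. Per the labels, batch 1 holds saline 1 and PFF 1, and batch 2 holds saline 2. The number of mice in a library is not given in the sources used here, so the spread between libraries may be technical in part.

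The files held 119282469 UMIs for saline 1, 163433860 for saline 2 and 142955760 for PFF 1. In each saline file 3 of the 4 wells, with 1509, 3648 and 8732 cells, held the same cells as in the other file, count for count, and were used once, as shared saline wells 1 to 3. Each saline library therefore stood on its own well, with 5631 cells in saline 1 and 5734 in saline 2, against 15352 in PFF 1. The median depth of the kept barcodes was 3241 UMIs for saline 1, 10130 for saline 2 and 9111 for PFF 1. Of the 225 C1q-bearing cells, 3 had a barcode sequence that was also present in another well.

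C1q-bearing cells were found in every well, at unequal shares. They were 11 of 5459 kept barcodes in saline 1, a share of 0.202% (exact binomial 95% interval 0.101% to 0.360%). They were 42 of 4332 in saline 2, a share of 0.970% (0.700% to 1.31%). PFF 1 held 99 of 12263, a share of 0.807% (0.657% to 0.982%), and so lay between the saline libraries. The shared saline wells held 21 of 993 (2.11%), 16 of 1734 (0.923%) and 36 of 8503 (0.423%), a range as wide as that between the libraries. PFF 1 exceeded the mean of the saline libraries by 0.222 percentage points, which was less than the SD of 0.543 points between them (n = 2). Within batch 1 the difference between PFF 1 and saline 1 was 0.606 points, and batch 2 held saline only. With 3 libraries no exact permutation test can pass, and none was made.

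The macrophage label was checked against genes that the rule did not use. Csf1r, the receptor for the macrophage growth factor CSF-1, had a UMI in 172 of the 225 cells (76.4%). Apoe, a lipid carrier made by tissue macrophages, had one in 220 (97.8%). Aif1, a cytoskeletal protein of macrophages, was found in 206 cells, and Ms4a7, a membrane protein of mature macrophages, in 165. Some other macrophage genes were found in fewer cells. Adgre1, Fcgr1, Mertk and Cd14 had a UMI in 54, 47, 19 and 8 of the 179 cells under 5000 UMIs. In the 46 deeper cells they were found in 38, 25, 25 and 8. Among the genes with the highest ratio to the other kept barcodes were Mmp13, Pf4, Igf1, C3ar1 and Timd4, all of which macrophages are known to make.

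The cells differed widely in depth. They held a median of 2192 UMIs with a range from 506 to 41212, and the library medians were 1575 in saline 1, 2079 in saline 2 and 2520 in PFF 1. Shared wells 1, 2 and 3 had medians of 1158, 1072.5 and 1540 UMIs. The 46 cells with at least 5000 UMIs held 68.3% of all UMIs of the C1q-bearing cells. Any sum over cells is therefore mostly a sum over these 46, of which 3 were in saline 1, 9 in saline 2, 19 in the shared saline wells and 15 in PFF 1.

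**Figure D1:**
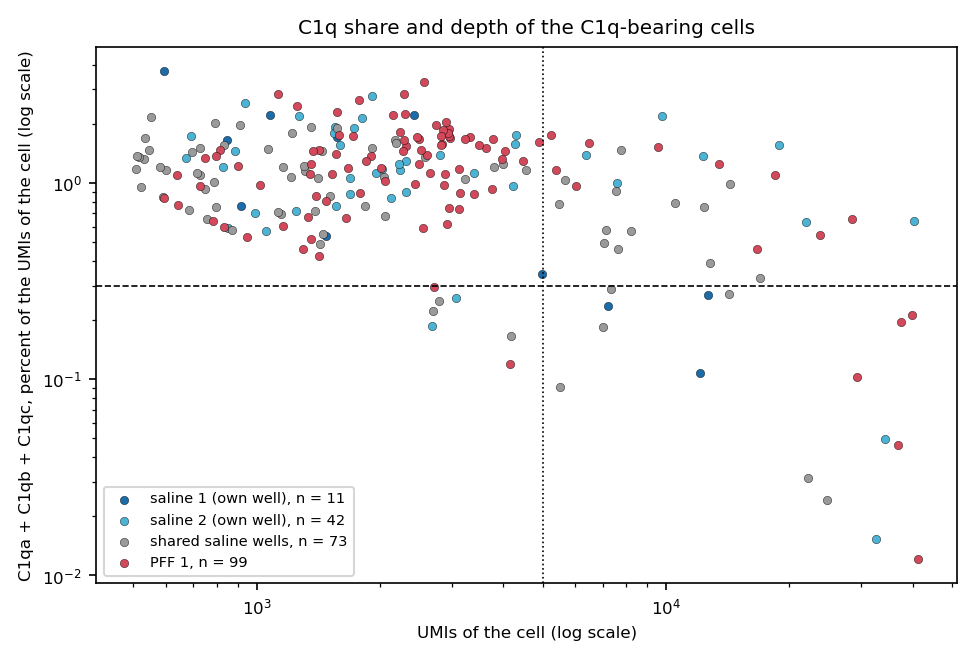
Share of C1q UMIs in each of the 225 C1q-bearing cells (vertical axis, percent of the UMIs of the cell, log scale) against the UMIs of the cell (horizontal axis, log scale), coloured by library; the dotted line marks 5000 UMIs and the dashed line a C1q share of 0.3%. Most cells sit near the median C1q share of 1.16%, while 23 cells, which include the deepest of all, lie under 0.3%.

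The share of C1q per cell had a main group and a low tail. The median was 1.16% of the UMIs of the cell, and 23 cells were below 0.3%, of which 3 were in saline 1, 4 in saline 2, 9 in the shared wells and 7 in PFF 1. A cutoff at 0.3% was set after the data were seen, and 12 cells lay between 0.2% and 0.4%. The 23 cells held 35.8% of the UMIs, and in them 5 C1q UMIs are a small part of the transcripts. Apoe stood at 2182 CPM (UMIs scaled to 1000000 UMIs of the cells named) in the 23 cells and at 17975 CPM in the rest. Flt3, a receptor of dendritic cells, had a UMI in 39.1% of the 23 cells and in 0.5% of the others. Plac8, a gene of monocytes that T cells also carry, was found in 56.5% of them against 10.9%. The macrophage label thus holds for the cells above 0.3%, and the 23 cells differ among themselves. A pair of deep PFF cells among them had 791 and 698 UMIs of macrophage identity genes. They had 142 and 127 of Apoe, 8 and 7 of Csf1r and none of Flt3 or Plac8. The deepest cell, also of PFF 1, had 1140 such identity UMIs, no Apoe, 14 UMIs of Flt3 and 99 of Plac8.

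At the threshold itself the change was gradual. The 17 otherwise eligible barcodes with 3 or 4 C1q UMIs had Csf1r in 47.1% and Apoe in 88.2%. The 23 cells with 5 or 6 C1q UMIs had Csf1r in 56.5% and Apoe in 82.6%, and the 128 cells with 20 or more had them in 91.4% and 99.2%. Timd4 had no UMI in the first of these sets, and was found in 4.35% of the second and 39.8% of the third.

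The clause against lymphocyte genes removed more barcodes in some wells than in others. In all, 315 kept barcodes had at least 5 C1q UMIs, and 90 of them were left out because they also held Cd3e or Cd79a. That took 14 of 25 in saline 1, 6 of 48 in saline 2, 0 of 21 in shared well 1, 0 of 16 in shared well 2, 22 of 58 in shared well 3 and 48 of 147 in PFF 1. T cells were the main cell type in these wells, and their transcripts also reached the retained cells. Gzma, a granzyme of T and NK cells, had a UMI in 130 of the 225 C1q-bearing cells and in 95.3% of the 27233 barcodes with Cd3e and no C1q. At least 2 UMIs of the T and NK, B and plasma or epithelial marker lists were found in 187 of the 225 cells, 6 in saline 1, 30 in saline 2, 63 in the shared wells and 88 in PFF 1. Free RNA and droplets with more than 1 cell cannot be told apart here.

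Resident genes were present in every library. The resident list held 18 genes, and summed over the list the cells had 1482 CPM in saline 1, 2390 in saline 2, 2669 in the shared wells and 2686 in PFF 1. The median cell had 3175, 1947, 3065 and 2425 CPM in the same order. Saline 1 was lowest by the sum and highest by the median cell, and PFF 1 lay within the range of the other sets by the median. Per shared well the sum was 2312, 3981 and 2398 CPM, so that shared well 2 was above all libraries.

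Timd4 (ENSMUSG00000055546, mm10 chromosome 11, 46810800 to 46844332, plus strand) was nearly absent from T cells. It had a UMI in 4 of 11 cells in saline 1, 9 of 42 in saline 2, 15 of 73 in the shared wells and 37 of 99 in PFF 1, and in 0.02% of the T cell barcodes. The median depth was 2192 UMIs for the C1q-bearing cells and 6911 for the T cell barcodes, so the T cell barcodes were the deeper ones. Depth moved detection within the C1q-bearing cells, with Timd4 in 42 of the 179 cells under 5000 UMIs and 23 of the 46 deeper ones. The level was 131 CPM in saline 1, 197 in saline 2, 224 in the shared wells and 206 in PFF 1. After thinning each cell to 2000 UMIs, for which 121 of the 225 cells were deep enough, Timd4 was found in 40.0% of 5, 13.6% of 22, 22.6% of 31 and 33.3% of 63 cells. The detected share in PFF 1 was above that of saline 2 and the shared wells and below that of saline 1 after thinning. The fitted log2 fold change of Timd4, PFF 1 against saline, was 0.28 ± 0.75 (SE), and it did not pass edgeR's quasi-likelihood test. Among cells with C1q of at least 0.3% of their UMIs it was -0.20.

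Mrc1 (ENSMUSG00000026712, mm10 chromosome 2, 14229392 to 14332057, plus strand) encodes the mannose receptor CD206. It stood at 174 CPM in saline 1, 278 in saline 2, 415 in the shared wells and 408 in PFF 1, with a UMI in 5, 10, 26 and 36 cells. The shared wells, which are saline, reached 602 CPM in well 2, above PFF 1, so the groups overlapped. The fitted log2 fold change was 0.81 ± 0.76, which did not pass. Timd4 and Mrc1 were each found in 65 and 77 of the 225 cells and together in 33.

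Most of the other well-measured resident genes overlapped between the groups too. Selenop, which carries selenium in plasma, stood at 458 CPM in saline 1, 1046 in saline 2, 1218 in the shared wells and 874 in PFF 1. Pf4, a chemokine of platelets and resident macrophages, had 87 CPM in saline 1, 374 in saline 2, 202 in the shared wells and 329 in PFF 1. Stab1, a scavenger receptor, ranged from 174 CPM in saline 1 to 241 in the shared wells, with 224 in PFF 1. PFF 1 was inside the range of the saline sets for all of these. Cd4, carried by a resident subset of gut macrophages, had a UMI in 37 of 99 PFF cells and in 4, 12 and 23 cells of saline 1, saline 2 and the shared wells. Gas6, a ligand that bridges dying cells to the receptors MERTK and AXL, had 2, 10 and 9 UMIs in saline 1, saline 2 and the shared wells and 51 UMIs in 20 PFF cells. Its CPM was 101 in PFF 1 against 43.6, 40.2 and 32.0, above every saline set, with a fitted log2 fold change of 1.30 ± 0.85 that did not pass.

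The genes that mark resident macrophages of deeper layers and vessels were nearly absent from these cells. Lyve1, the hyaluronan receptor, had 44 UMIs, all in 1 PFF cell. Ednrb, an endothelin receptor, had 41 UMIs in 4 PFF cells and none in saline. Folr2, the beta folate receptor, had 3 UMIs in 1 cell of saline 2 and 13 UMIs in 3 PFF cells. Cd163, a hemoglobin scavenger receptor, had 3 UMIs in the shared wells and 5 in PFF 1, and Colec12 had none. Of the 18 resident genes, 11 were deep enough to be tested and 0 were called, 8 with a fitted log2 fold change above 0 and 3 below, with a median of 0.32. Of all 5542 genes tested, 0.632% were called and 49.9% had a log2 fold change above 0. When the shared wells entered as another library, 2 of the 11 were called higher, Lyve1 and Ednrb, against 0.901% of all genes. Both were at 0 in every saline set and passed the filter on low counts through PFF 1 alone, so they had to come out higher. With 1 residual degree of freedom, a gene that did not pass may still differ between the groups.

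Mucosal genes were likewise present in every library. The 18 genes of the mucosal list summed to 4054 CPM in saline 1, 6242 in saline 2, 6151 in the shared wells and 4843 in PFF 1, and the median cell had 8743, 5193, 6140 and 5402 CPM. PFF 1 lay between saline 1 and saline 2 by both measures. Of the 16 genes tested 0 were called, 6 with a log2 fold change above 0 and 10 below, with a median of -0.20.

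Cx3cr1 (ENSMUSG00000052336, mm10 chromosome 9, 119901616 to 120069879, minus strand), the fractalkine receptor of mature gut macrophages, had a UMI in 109 of the 225 cells. It was found in 9 of 11 cells in saline 1, 17 of 42 in saline 2, 36 of 73 in the shared wells and 47 of 99 in PFF 1, against 2.24% of the T cell barcodes. Its level was 676 CPM in saline 1, 366 in saline 2, 571 in the shared wells and 341 in PFF 1, the lowest of these 4 values, though close to saline 2. The fitted log2 fold change of Cx3cr1 was -0.54 ± 0.81, well within its error. After thinning, 80.0%, 40.9%, 61.3% and 49.2% of cells had it.

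Itgax (ENSMUSG00000030789, mm10 chromosome 7, 128129547 to 128150657, plus strand), which encodes CD11c, stood at 262 CPM in saline 1, 278 in saline 2, 266 in the shared wells and 228 in PFF 1. T cell barcodes had it in 27.1%, as intestinal T cells carry this gene themselves, so their share is not a background for it. Dnase1l3, a secreted nuclease that clears chromatin, was at 676, 922, 944 and 547 CPM in the same order. Mmp13, a collagenase, was at 109 CPM in saline 1, 338 in saline 2, 199 in the shared wells and 149 in PFF 1. Dnase1l3 was lower in PFF 1 than in each saline set, with a log2 fold change of -0.54 ± 0.83, and Mmp13 lay between saline 1 and the other sets. Acp5, an acid phosphatase, was at 196, 873, 444 and 723 CPM, and Cd81, a tetraspanin, at 501, 1010, 813 and 1066 CPM. Both were lowest in saline 1. Il10, the anti-inflammatory cytokine of gut macrophages, had 5 UMIs in 5 of the 225 cells, and Mmp12 had 23 UMIs in 7 cells.

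**Figure D2:**
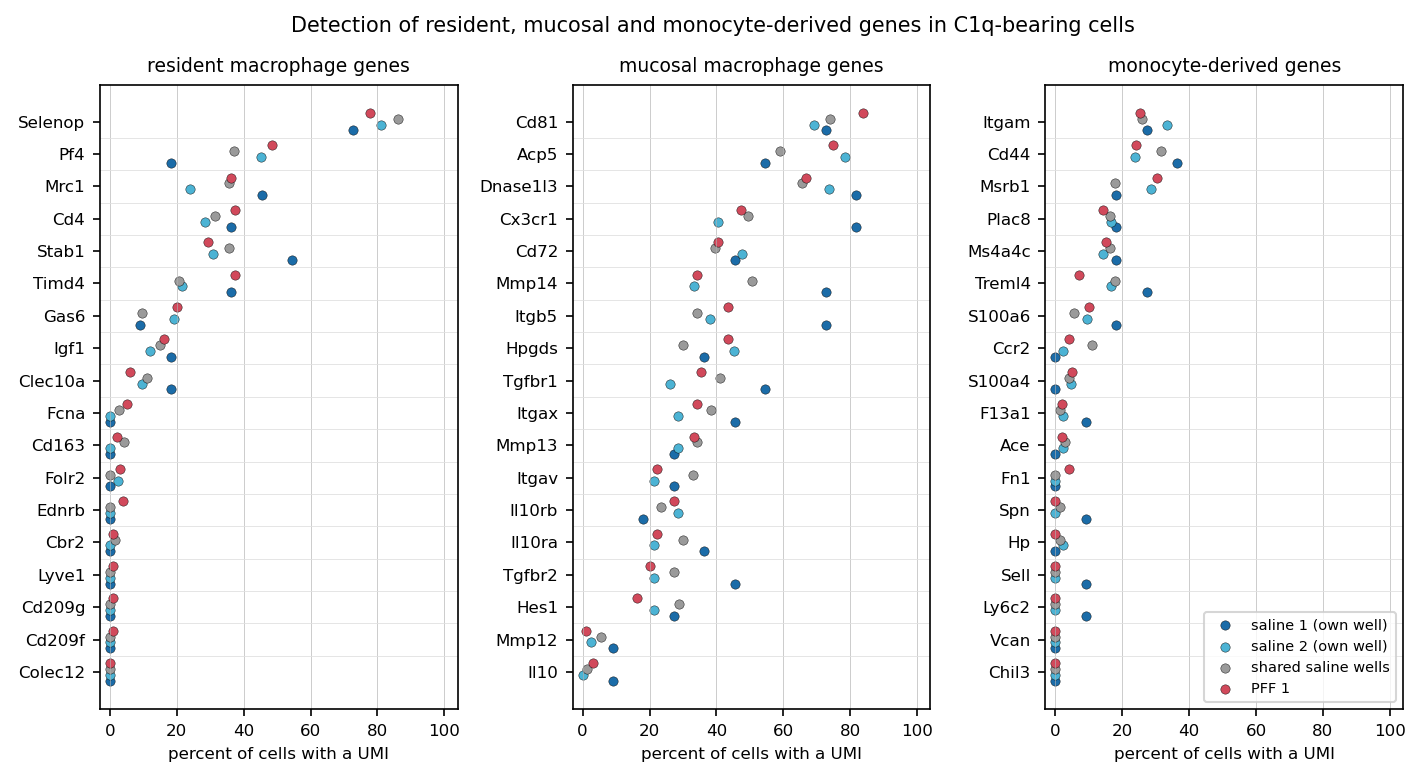
Percent of C1q-bearing cells with at least 1 UMI of each resident, mucosal and monocyte-derived gene (horizontal axis), by library; saline 1 has 11 cells, saline 2 has 42, the shared saline wells 73 and PFF 1 has 99. The points of PFF 1 lie among those of the saline sets for most genes, and 2 of the 18 monocyte-derived genes, Vcan and Chil3, have no UMI at all.

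Resident and mucosal genes were often found in the same cells. Timd4 and Cx3cr1 were found together in 43 cells, and Mrc1 and Cx3cr1 in 53 of the 77 cells with Mrc1. Cx3cr1 and Itgax were found together in 51. These counts depend on depth, and in the 121 cells thinned to 2000 UMIs the corresponding numbers were 23, 24 of 37 and 17. The cell with Lyve1 had no Timd4.

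**Figure D3:**
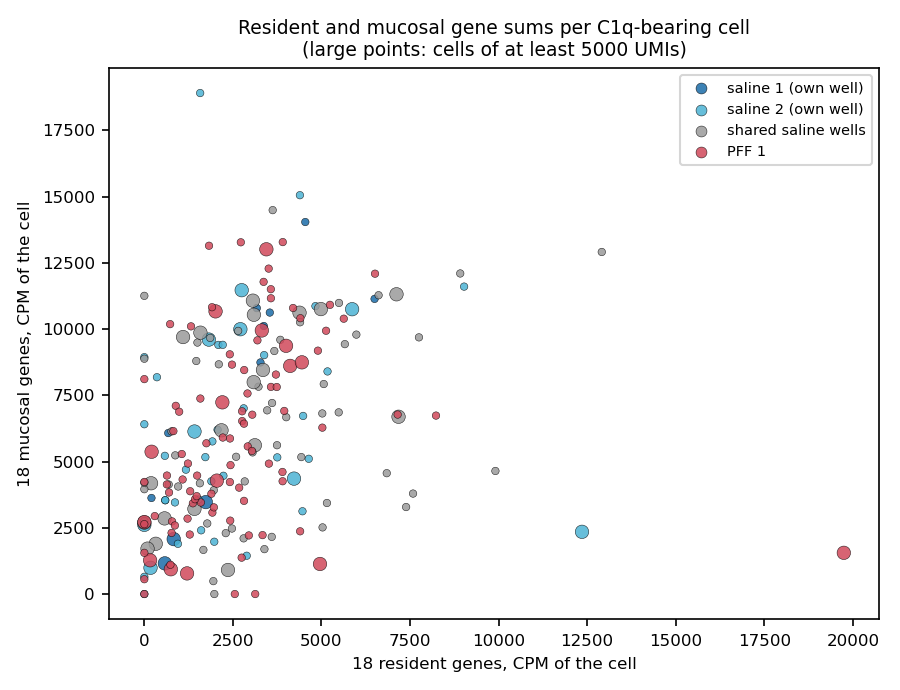
Summed CPM of the 18 resident genes (horizontal axis) and of the 18 mucosal genes (vertical axis) in each of the 225 C1q-bearing cells, coloured by library; large points are cells of at least 5000 UMIs. The libraries overlap throughout, and the point farthest to the right is the PFF cell that holds all 44 UMIs of Lyve1.

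The sum of the monocyte-derived genes was highest in PFF 1, and the median cell of PFF 1 was lowest. The 18 genes summed to 1657 CPM in saline 1, 1642 in saline 2, 1196 in the shared wells and 4176 in PFF 1. The median cell had 806, 532, 487 and 438 CPM in that order. In cells under 5000 UMIs the sum was 721 CPM in saline 1, 806 in saline 2, 920 in the shared wells and 578 in PFF 1. In the deeper cells it was 2062, 1935, 1300 and 6287 CPM. The excess in the PFF 1 sum was thus in its 15 deep cells, while the sum of its 84 shallower cells was the lowest of the 4 sets. The median deep cell had 947 CPM in saline 1, 592 in saline 2, 705 in the shared wells and 964 in PFF 1. The typical deep PFF cell was thus near that of saline 1, and single PFF cells held 579, 432 and 340 of the UMIs. The cell with 579 had 5 C1q UMIs of 41212, no Apoe and 63 UMIs of dendritic cell markers. The cells with 432 and 340 had C1q shares of 0.21% and 0.20%. For shallower cells the medians were 741, 510, 0 and 401 CPM in the same order. The cells with C1q under 0.3%, which differ among themselves, held 1537 of the 2108 UMIs of these genes in PFF 1 (72.9%). In saline 1, saline 2 and the shared wells such cells held 86.8%, 71.8% and 62.9%. In the cells above 0.3% the sum was 721 CPM in saline 1, 654 in saline 2, 654 in the shared wells and 1822 in PFF 1. Of the PFF UMIs in that sum, 245 were in 1 cell with a C1q share of 0.54% and 178 in another at 0.46%, so these cells held most of it.

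Of the 18 monocyte-derived genes 11 were tested and 3 rose in edgeR's quasi-likelihood test, against 0.433% of all genes called higher. The 3 were Fn1, F13a1 and Ccr2, 10 of the 11 had a log2 fold change above 0, and the median was 1.07, also with Fn1 placed at its lower bound. Fn1 and Ccr2 could only be called higher, as each passed the filter on low counts through PFF 1 alone. Fn1 (ENSMUSG00000026193, mm10 chromosome 1, 71585520 to 71653200, minus strand), the matrix protein fibronectin, had no UMI in any saline set and 532 UMIs in 4 PFF cells. These were 274, 178, 74 and 6 UMIs, so a pair of cells held most of them. Against a floor of 3 counts over the own wells of both saline libraries Fn1 was at least 103-fold higher. It passed the filter on low counts through PFF 1 alone, so its p is not given. F13a1, a clotting factor chain made by monocytes and some resident macrophages, had 1, 10 and 2 UMIs in saline 1, saline 2 and the shared wells. It had 216 in PFF 1, which were 157 in 1 cell and 59 in another. Its log2 fold change was 3.58 ± 0.83. The spread behind its call came from the saline libraries, so it measures none between PFF libraries or cells, and no p is given. With barcodes that held Cd3e or Cd79a kept, the log2 fold change of F13a1 was 3.45 and did not pass.

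Ccr2, the receptor that brings monocytes into tissue, had no UMI in saline 1, 5 UMIs in 1 cell of saline 2 and 28 UMIs in 8 cells of the shared wells. In PFF 1 there were 94 UMIs in 4 cells, of which 48 were in 1 cell and 43 in another. The number of cells with Ccr2 was thus higher in the shared saline wells than in PFF 1, while the UMIs were fewer. The log2 fold change was 3.50 ± 0.86, with no p given, because Ccr2 passed the filter on low counts through PFF 1 alone. With the shared wells as a further library its adjusted p in edgeR's quasi-likelihood test was 0.0943. The defining monocyte genes Vcan and Chil3 had no UMI in the 225 cells. Ly6c2 had 13 UMIs, all in 1 cell of saline 1. S100a6, a calcium-binding protein of monocytes, had 557 UMIs in 10 PFF cells, 5 and 169 UMIs in saline 1 and saline 2 and 55 in the shared wells, and did not pass. Itgam, which encodes CD11b, the antigen used for the bead enrichment, stood at 87 CPM in saline 1, 117 in saline 2, 170 in the shared wells and 285 in PFF 1. It was found in 3, 14, 19 and 25 cells, with a log2 fold change of 1.43 ± 0.75 that did not pass. Plac8 had 27, 55, 70 and 194 UMIs and a log2 fold change of 0.04 ± 0.79.

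Across all genes, 35 of 5542 were called between PFF 1 and the own wells of the saline libraries, 24 higher and 11 lower in PFF (0.433% and 0.198%). Of the 24, 8 had no UMI in the own wells of either saline library, and of the 11, 2 had none in PFF 1. These passed the filter on low counts only through the group where they were high, so they had to differ and no p is given for them. The filter was also passed through PFF 1 alone by higher genes with few UMIs in the own saline wells. These were Ccr2, Cd36, Ccl9, Saa3, Timp2, Setbp1, Sptbn1, Add3 and Gm12865, and they could only be called higher. None of the 11 genes called lower was above 13.9 CPM in PFF 1. All 11 passed the filter through the own saline wells alone and could only be called lower. The rise was led by Retnla (ENSMUSG00000061100, mm10 chromosome 16, 48842551 to 48844461, plus strand), a secreted protein of macrophages exposed to IL-4. It had no UMI in the C1q-bearing cells of any saline well and 1160 UMIs in 4 PFF cells, of which 1067 were in 1 cell and 91 in another. Retnla was at least 225-fold higher against the floor of 3 counts over the own saline wells.

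Retnla, Fn1 and Ccr2 had no UMI in saline 1, of the same batch, where 3 counts are 65.4 CPM. Against saline 1 alone the log2 differences (prior count 2, no test) were 4.18 for F13a1, with 1 UMI there, 0.98 for Timd4, 1.55 for Mrc1, -0.61 for Cx3cr1 and 0.17 for Itgax. Batch 2 held saline only, so batch and treatment cannot be told apart for PFF 1 against saline 2.

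Another group of called genes lay wholly or in large part in 1 pair of deep PFF cells, with 39800 and 37408 UMIs and C1q shares of 0.21% and 0.20%. Marco, a scavenger receptor, had 110 UMIs, all in this pair, and was at least 21.4-fold higher. Prg4, the lubricant protein lubricin, had 82, also all in the pair, at least 15.9-fold higher. Saa3, an acute-phase protein, had 135 UMIs in PFF 1, of which 69 and 65 were in the pair, against 3 in saline 2 and 1 in the shared wells. Cd36, a scavenger receptor for oxidised lipid, had 136 UMIs in 5 PFF cells, 5 in saline 2 and 2 in the shared wells, with a log2 fold change of 4.04 ± 0.87. It passed the filter on low counts through PFF 1 alone, so its p is not given. The chemokines Ccl6 and Ccl9 had 320 and 106 UMIs in PFF 1, and Ccl6 had 1, 16 and 11 and Ccl9 0, 2 and 4 in saline 1, saline 2 and the shared wells. The most UMIs of Ccl9 in a cell were 37 in 1 of the pair, and 31 were in the PFF cell with the most Retnla. The matrix inhibitor Timp2, with 138 UMIs in PFF 1 against 5 in saline 2, the phospholipase Plcb1, with 131 against 6 in the shared wells, and the potassium channel partner Kcnip4, with 287 against 2 in saline 1, rose too. Cd36 and Timp2 also had 34 and 27 UMIs in the PFF cell with Lyve1. The pair held 274 and 178 UMIs of Fn1, 25 and 11 of Timd4, no Ccr2 or F13a1, and 41 and 33 UMIs of MHC class II genes.

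The cells that held the other called genes differed from this pair. The PFF cell with 1067 UMIs of Retnla, of 23796 UMIs in all, also had 48 UMIs of Ccr2, 59 of F13a1, 74 of Fn1, 42 of Mrc1 and 726 of MHC class II genes. The PFF cell with the 44 UMIs of Lyve1, of 16713 in all, had 11 of Folr2, 24 of Ednrb, 18 of Cbr2, 157 of F13a1, 91 of Retnla and 61 of Mrc1. It had no Timd4 and 55 UMIs of MHC class II genes. Retnla and F13a1 were thus shared by a cell with Ccr2 and no Lyve1 and a cell with Lyve1 and no Ccr2.

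Of the 11 genes called lower, 10 had more than 50% of their saline UMIs in 1 saline cell, and 1700016P03Rik had 41.5%. Nr4a3, an activation-induced nuclear receptor, had 73 UMIs in saline 2, all in 1 cell of 34325 UMIs with a C1q share of 0.05%, 1 in the shared wells and none in PFF 1. Ccl22, a chemokine of activated dendritic cells and macrophages, had 46 UMIs in the same cell and none in the other C1q-bearing cells. Among the other kept barcodes, at least 10 UMIs of Nr4a3 were found in 71 of PFF 1, 2 of saline 1, 42 of saline 2 and 33 of the shared wells. At least 10 UMIs of Ccl22 were found in 4, 0, 3 and 4 in the same order, so both genes were found in PFF 1 outside the C1q-bearing cells. Ly6d, a surface protein of lymphoid and plasmacytoid dendritic cell progenitors, had 30 UMIs in 1 cell of saline 1, which also held the 13 UMIs of Ly6c2, and 1 UMI in PFF 1. Dusp5, Alpk2, Serpinb6b and Serpinb9 had most of their UMIs in the saline 2 cell with Nr4a3.

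All 35 called genes had more than 50% of the UMIs of their higher group in 2 cells. For the 24 higher genes the 2 cells held a median of 92.3% (60.5% to 100%), and for the 11 lower genes 89.9% (65.9% to 100%). Cells with C1q under 0.3% held more than 50% of those UMIs for 19 of the 24 higher and 9 of the 11 lower genes. The pair of PFF cells above supplied the top cell of 14 and of 5 of the 24 higher genes, and the saline 2 cell with Nr4a3 that of 7 of the 11 lower genes. Of the 24, 11 had no UMI in the 84 PFF cells under 5000 UMIs. The broadest was Zg16, a product of goblet cells, with a UMI in 31 PFF cells but 70 of its 124 UMIs in 1. It stood at 246 CPM in PFF 1 and at 570 CPM in the T cell barcodes, 11.4% of which had a UMI. Whether it came from droplet background was not tested.

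**Figure D4:**
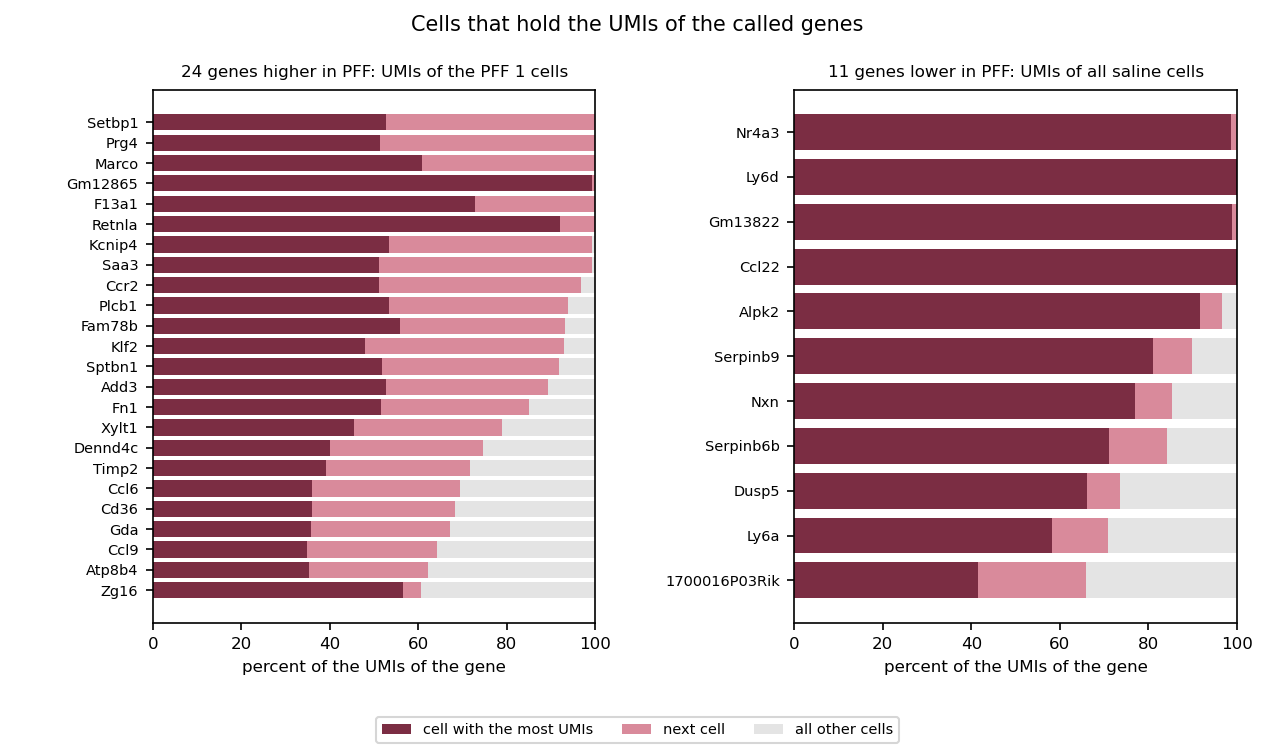
Percent of the UMIs of each called gene that lay in the cell with the most UMIs (dark), the next cell (light) and all other cells (grey), for the 24 genes higher in PFF 1 (left, UMIs of PFF cells) and the 11 lower (right, UMIs of all saline cells). Every bar passes 50% within its first 2 cells.

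No gene was called when the deep cells were taken out or the barcodes with lymphocyte genes kept, alternatives added after the data were seen. With only the cells under 5000 UMIs, 0 of 1327 genes tested were called and 3 had an unadjusted p under 0.05 in edgeR. With each cell thinned to 500 UMIs, 0 of 412 were called and 0 had an unadjusted p under 0.05. With barcodes that held Cd3e or Cd79a kept, 0 of 8241 were called and 302 had an unadjusted p under 0.05. Of the 35 genes, 2 were still deep enough to be tested in each of the first 2 of these and all 35 in the third, so the first 2 bear on few of the calls. Zg16, which was higher in the T cell barcodes than in PFF 1, had a log2 fold change of 2.86 in all C1q-bearing cells. It was 3.06 in cells under 5000 UMIs and 2.77 after thinning. Retnla was at 7.17 after thinning, and Gda, a guanine deaminase, went from 3.02 to -0.40 in cells under 5000 UMIs. In the third, 33 of the 35 kept their direction. Without the 187 cells that held at least 2 UMIs of other cell types, 0 of 390 were called and 3 had an unadjusted p under 0.05. DESeq2 on the cells as chosen called Retnla and Fn1 only, with 54 genes at an unadjusted p under 0.05. When the shared wells entered as another saline library, edgeR called 76 of 6104 genes (1.25%), 55 higher (0.901%) and 21 lower (0.344%), of which 34 were among the 35.

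**Figure D5:**
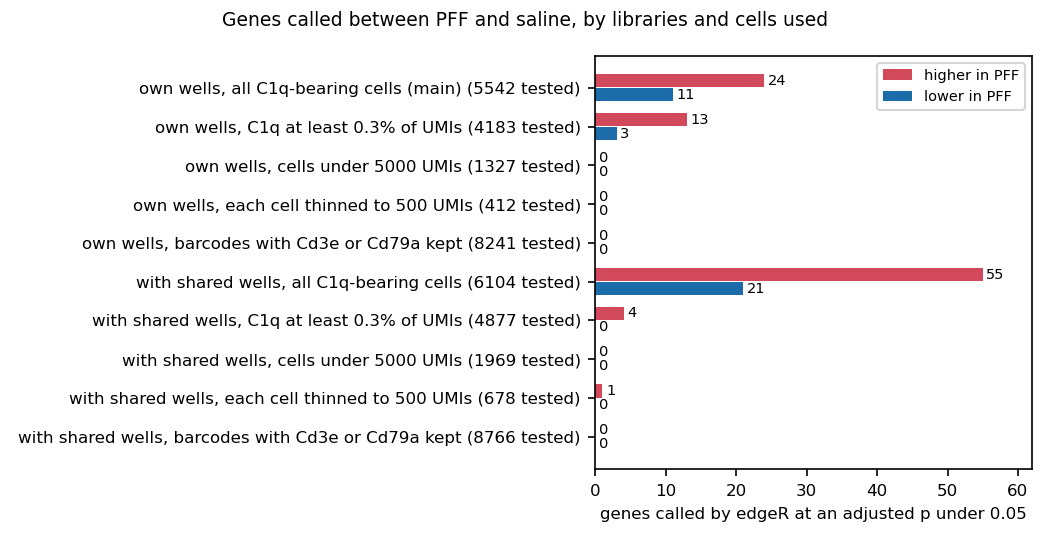
Number of genes called higher (red) and lower (blue) in PFF 1 by edgeR's quasi-likelihood test at an adjusted p under 0.05, for the own wells of the saline libraries and with the shared wells as a further library, under 5 choices of cells; the number of genes tested is in each label. The counts are 35 and 76 with all C1q-bearing cells and 0 with cells under 5000 UMIs and with barcodes of Cd3e or Cd79a kept.

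The saline wells also held barcodes with these transcripts that the rule did not choose. At least 10 UMIs of Retnla were found in 6 kept barcodes of the series, 2 of them C1q-bearing cells of PFF 1. Shared well 3 held a barcode with 802 UMIs of Retnla, 149 of Fn1, 43 of Ccr2 and 9 of C1q, which was left out for its Cd3e or Cd79a. Shared well 3 held another with 18 UMIs of Retnla and 83 of C1q, left out for the same reason, and shared well 1 one with 96 UMIs of Retnla and 1 of C1q. When the barcodes with Cd3e or Cd79a were kept and the shared wells entered as a library, the log2 fold change of Retnla was 1.02 and its adjusted p in edgeR's quasi-likelihood test 1.00. For Marco and Saa3 no kept barcode outside the C1q-bearing cells of PFF 1 had as many as 10 UMIs, and for Prg4 1 barcode of saline 2 did, with 13.

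MHC class II genes were high in nearly every cell and no gene of the list was called. Cd74, the invariant chain, had a UMI in 222 of the 225 cells and stood at 10965 CPM in saline 1, 15079 in saline 2, 15107 in the shared wells and 13078 in PFF 1. H2-Ab1 stood at 3292, 6974, 6254 and 6204 CPM. All 7 genes were tested, 5 with a log2 fold change above 0 and 2 below, with a median of 0.17. PFF 1 lay within the saline range for both named genes.

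The macrophage identity and lysosome lists gave 0 calls as well. Of the 15 identity genes all were tested, 8 above and 7 below 0, with a median log2 fold change of 0.21. Lyz2, lysozyme, stood at 1504 CPM in saline 1, 5083 in saline 2, 4192 in the shared wells and 6796 in PFF 1. Csf1r stood at 741, 1252, 1296 and 967 CPM and Apoe at 6082, 13651, 11604 and 12642 CPM. Saline 1 was the lowest for all 3. Of 20 lysosome genes 19 were tested, 9 above and 10 below 0, with a median of -0.00. Psap, the saposin precursor, was at 5689, 3207, 3326 and 3243 CPM and Ctss, the protease cathepsin S, at 1548, 2330, 2400 and 1834 CPM.

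Among genes of uptake and of alpha-synuclein handling, the calls were those of Marco and Cd36. Both passed the filter on low counts through PFF 1 alone, so they could only be called higher. The list of efferocytosis and scavenging had 15 of 16 genes tested, 2 higher against 0.433% of all genes, 9 above and 6 below 0 against 49.9% above, with a median of 0.28. With the shared wells Lrp1, a receptor for apoptotic cells and lipoproteins, was called too. Msr1, the scavenger receptor A, was at 305, 584, 525 and 380 CPM in saline 1, saline 2, the shared wells and PFF 1, and Cd300a, an inhibitory phosphatidylserine receptor, at 283, 398, 419 and 250 CPM. PFF 1 was inside the saline range for Msr1 and below it for Cd300a. The list for alpha-synuclein handling had 8 of 11 genes tested and 1 called, Cd36, against the same 0.433%, with a median of 0.15. Ctsb and Ctsd, cathepsins that cut the protein, stood at 1781 and 230 CPM in PFF 1, and at 1613, 1992 and 1455 CPM and 109, 169 and 85.2 CPM in the saline sets. Lrrk2, a kinase linked to Parkinson's disease, had 4, 9, 14 and 26 UMIs, and Fcgr2b, an inhibitory Fc receptor, was at 43.6, 96.6, 103 and 109 CPM.

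Cytokine, complement and activation genes gave few calls. Of 20 chemokines and cytokines 13 were tested and 2, Ccl6 and Ccl9, rose, against 0.433% of all genes, with 8 above and 5 below 0 and a median of 1.27. Ccl9 passed the filter on low counts through PFF 1 alone. The pair of deep PFF cells held 69.4% of the PFF UMIs of Ccl6, and 1 of the pair and the cell with the most Retnla held 64.2% of those of Ccl9. With the shared wells Ccl2 and Ccl7, both monocyte attractants, were called higher as well, at log2 fold changes of 3.87 and 4.97. Both passed the filter on low counts through PFF 1 alone, so they could only be called higher. Il1b, the inflammatory cytokine, stood at 218 CPM in saline 1, 374 in saline 2, 454 in the shared wells and 73.3 in PFF 1. PFF 1 was the lowest set for Il1b, and its log2 fold change of -2.05 ± 0.84 did not pass edgeR's quasi-likelihood test (adjusted p = 0.706). Of 14 complement genes beyond C1q 8 were tested and 0 called, all 8 above 0 against 49.9% of all genes, with a median of 1.03. The pair of deep PFF cells held 150 and 161 of the 811 PFF UMIs of this list. The median cell had 929 CPM in saline 1, 550 in saline 2, 921 in the shared wells and 794 in PFF 1, inside the saline range. With the shared wells 1 of the 8, C4b, was called higher, against 0.901% of all genes, with 36 UMIs in 3 PFF cells and none in saline. It passed the filter on low counts through PFF 1 alone, so it had to come out higher. C3ar1, the receptor for the fragment C3a, was at 153, 177, 302 and 301 CPM, and Cfp, properdin, at 153, 92.6, 149 and 188 CPM. Of 9 genes of alternative activation 6 were tested and 1, Retnla, rose, against 0.433% of all genes, with a median of 0.61. Retnla passed the filter on low counts through PFF 1 alone, so it had to come out higher, and 1067 of its UMIs were in 1 cell. Mgl2, a lectin of such macrophages, was at 262, 141, 206 and 133 CPM.

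The remaining lists had 0 calls, and 1, Abca1 of the lipid list, when the shared wells entered as another library. Abca1 passed the filter on low counts through PFF 1 alone, so it could only be called higher. The 9 interferon genes tested of 11 had a median log2 fold change of 0.32, and Cxcl9, an interferon-induced chemokine, was at 305, 423, 511 and 458 CPM. The 6 iron genes tested of 8 had a median of 0.29, with Fth1, the ferritin heavy chain, at 1896 CPM in saline 1, 10600 in saline 2, 5026 in the shared wells and 8583 in PFF 1. The saline sets of Fth1 thus spanned the PFF value. The 8 lipid genes tested of 12 had a median of 0.53, and Spp1 had no UMI. The 11 dissociation genes, which rise when tissue is digested, had a median of -0.21, with Junb at 218, 278, 344 and 117 CPM. Of the 6 genes by which muscularis macrophages and enteric neurons signal to each other, Bmpr2 alone was tested, at 109, 92.6, 114 and 107 CPM; Bmp2, the macrophage ligand of the pair, had 9 UMIs.

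Markers of other cell types were also tested in the C1q-bearing cells, with 0 calls in any list. The T and NK list summed to 828 CPM in saline 1, 761 in saline 2, 607 in the shared wells and 800 in PFF 1 and had a median log2 fold change of 0.23 over 5 genes. The B and plasma list summed to 545, 161, 660 and 323 CPM (median 0.72 over 4 genes) and the epithelial list to 21.8, 330, 401 and 386 CPM (median 0.62 over 6). Dendritic cell markers summed to 2093, 773, 994 and 790 CPM, highest in saline 1, with a median of -0.69 over 8 genes. Neutrophil markers had a median of -0.34 over 2 genes and the stromal, vessel and glial list -1.02 for 1. The mast cell list had no gene deep enough to test. Ms4a1, S100a9, Xcr1, Ccr7, Col1a1, Myh11 and Sox10 had no UMI in the 225 cells. The part of these transcripts in the calls above was not tested.

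The nearest other cells were those with Csf1r but fewer than 5 C1q UMIs. There were 143 such barcodes without Cd3e and Cd79a, 14 in saline 1, 35 in saline 2, 7, 11 and 28 in the shared wells and 48 in PFF 1, with a median of 13807 UMIs. Their resident genes summed to 156 CPM, against 2563 CPM in the C1q-bearing cells. Timd4 was found in 2.8% of them, Mrc1 in 2.8% and Pf4 in 0.7%, although they were deeper. Flt3 was found in 53.8%, against 4.4% of the C1q-bearing cells, Plac8 in 86.0%, Cd209a, a lectin of dendritic cells, in 35.0% and Ccr2 in 27.3%. Chil3 and Vcan, which had no UMI in the C1q-bearing cells, were found in 17.5% and 7.0% of these barcodes. The rule used C1q of the same libraries, so these are descriptions with no test.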

How the data were processed

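Single-cell libraries (10x 3' v3) of duodenal immune cells were used as deposited, as raw UMI counts per gene and barcode, per the file headers made with Cell Ranger 7.0.0. The submitters' processing notes name mm10, and gene positions are those of the GENCODE annotation of GRCm38, the same build. The sources used here do not give the cell calling or how wells were joined. The C1q-bearing cells and 23 gene lists were chosen with earlier results of these data known, and so were the tests. 1 list symbol, Mx1, was not in the files, and some list genes are not reported here.

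Barcodes were compared between the files, and the identical saline wells were counted once. UMIs of the C1q-bearing cells were summed per library and compared in R 4.3.3 by edgeR 4.0.16 (TMM, filterByExpr, quasi-likelihood F test, 2-sided, Benjamini-Hochberg over all genes tested, called at an adjusted p under 0.05). PFF 1 was set against the own wells of saline 1 and saline 2. That leaves 1 residual degree of freedom, from the saline libraries, and PFF 1 is assumed to vary like them. SEs are the log2 fold change over the root of the F statistic. CPM are UMIs of a gene scaled to 1000000 UMIs of the cells. Tests were checked on counts simulated per library, in which this design recovered only changes far larger than several-fold, and adding the shared wells recovered smaller ones. At 64-fold there were 5 false calls with the own wells and 12 with the shared wells. No single cells were simulated, so this does not show how the test behaves where a few cells hold most UMIs.

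The genes named are the members of the resident, mucosal and monocyte-derived lists, 2 to 5 members of the other lists with the most UMIs, and up to 12 called genes in each direction by p, filled by size. Some members of the other lists with few UMIs, the genes at 0, and genes named for the cells they share were chosen after their values were seen. Detection was recomputed with cells thinned to 2000 UMIs. T cell barcodes (Cd3e, no C1q) served as droplet background. Scrublet's own cutoff, applied well by well, called less than 0.5% of barcodes doublets except in shared well 2 (0.577%), so in an alternative the highest scores were removed at 0.8% per 1000 cells, which took 5 C1q-bearing cells, all of PFF 1. Doublets were otherwise kept. Alternatives were DESeq2 1.42.0, RLE, no low-count filter, the shared wells as a library, each well as a library, other C1q and cell filters and, added after the data were seen, a C1q share, a depth limit, thinning to 500 UMIs and keeping barcodes with Cd3e or Cd79a. Matrices were handled with scanpy 1.11.5, anndata 0.12.19, numpy 2.4.6 and scipy 1.17.1 in Python 3.11.15.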

Additional observations from a re-analysis of the deposited data

How the results depend on the processing

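The count of called genes, 35 with the settings of the report, was 35 with RLE normalization, 27 without a filter on low counts, 2 with DESeq2, 37 with each well as a library, 76 when the shared wells entered as another library and 1433 with the saline files as deposited, in which both saline libraries hold the shared wells. It was 51 with at least 3 C1q UMIs, 37 with at least 10, 33 with at least 1000 UMIs, 45 with at most 10% mitochondrial UMIs and 37 with doublets removed. It was 0 without cells that held other lineages, of 390 tested. Of the alternatives added after the data were seen, it was 16 with C1q of at least 0.3% of UMIs, of which 5 were among the 35, and 0 with cells under 5000 UMIs, with cells thinned to 500 UMIs and with barcodes of Cd3e or Cd79a kept. With the shared wells as a further library these were 4 (Retnla, Fn1, F13a1 and Gm12865), 0, 1 (Retnla) and 0. Leaving out a saline library gave values only, and with the shared wells it gave 55 to 119 calls, 119 without saline 1 and 55 without saline 2. The causes were not tested, apart from the smaller number of genes tested in shallow cells.

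Of 567 values of 30 named genes under the alternatives, 397 kept their direction and call, 101 lost the call, 2 gained it, 49 moved beyond their SE and 18 turned direction. Timd4 turned to -0.20 with the C1q share, to -0.18 with the share and the shared wells, and to -0.031 with the shared wells and barcodes of Cd3e or Cd79a kept. With the last setting Mrc1 was -0.14, Ccr2 -0.20, Ly6d 2.07, Ly6a 0.22 and Coro2a 0.38, and with those barcodes in the own wells alone Ly6d was 1.37, Ly6a 0.46 and Coro2a 0.43. Leaving out saline 1 or saline 2 gave ranges of -0.24 to 0.17 for Itgax, -4.42 to 0.88 for Alpk2, -3.78 to 1.56 for Serpinb9, -4.02 to 0.64 for 1700016P03Rik and -5.82 to 0.46 for Ly6d. Ly6d was 0.49 in PFF 1 against the shared wells, where Alpk2 was 0.43.

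The share of C1q-bearing cells in PFF 1 minus the saline mean, 0.222 points, moved in every alternative by less than the SD of 0.543 points between the saline libraries, and it changed sign in 3: it was -0.119 with each well as a library, -0.0946 without cells that held other lineages and -0.162 without saline 1, and it was 0.606 without saline 2. No paired analysis was possible because saline and PFF share only replicate number 1. A count of 0 in the 11 cells of saline 1 allows up to 65.4 CPM, against 12.1 in saline 2, 10.6 in the shared wells and 5.94 in PFF 1. Of Timd4, Mrc1, Cx3cr1 and Itgax, Mrc1 in saline 1 had a UMI in 45.5% of cells and in 0% of 5 after thinning.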
